A study of Capra hircus with 30 samples.

Results

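Among the 20125 features measured in goat granulosa cells, 104 were frequent but not universal. A feature belonged to this set when it reached 1 FPKM (fragment number divided by transcript length and by the mapped fragments of the library) in at least 15 of the 30 libraries and was listed at 0 in at least 1. The rule used the measured levels themselves, so that the frequencies, zeros and levels below are a description of these features and carry no test. Of the 104, 42 had a gene symbol, 37 had an uncharacterised NCBI locus name (LOC number) and 25 had an identifier starting with MXLOC, whose meaning the sources used here do not give.

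All 30 libraries came from Ji'ning grey goats, from total RNA of granulosa cells of the ovary, and formed 6 groups of 5. The high fertility groups, from goats with larger litters, were HLG (large follicles), HMG (medium follicles) and HSG (small follicles), and the low fertility groups were LLG, LMG and LSG in the same order of size. The study pooled the follicles of several goats within a fertility class and then divided a small number of granulosa cells into each library, so that p-values measured the spread between libraries, which may be technical and need not be the spread between goats. No treatment or genetic change was given in the labels, and the age of the goats is not given there either.

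Granulosa cells are the somatic cells that line the follicle and nourish the oocyte. They divide while the follicle grows, take up and modify steroids, and turn towards progesterone production around ovulation. Housekeeping genes for protein synthesis, RNA processing and membrane traffic are used by every such cell, whereas hormone receptors and steroid enzymes mark the cell type and its stage. In libraries made from few cells, detection of transcripts present in modest numbers is known to vary from library to library.

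Libraries differed widely in how much of the table they filled. The number of features above 0 FPKM ran from 301 (LLG-7) to 9256 (LMG-9), and 7 libraries held fewer than 2000, a limit set after the values were seen (HLG-5, HLG-8, HMG-8, HSG-5, LLG-5, LLG-7 and LLG-10). FPKM does not carry the number of reads, and read numbers were not used here. Markers of the labelled cell type were sparse. Of 12 granulosa cell markers in the table, the most frequent was INHBA, a subunit of inhibin and activin, at 1 FPKM or more in 5 libraries, and the gonadotropin receptor gene FSHR was above 0 in 1. No marker of granulosa cells, oocytes, theca, immune cells, erythroid cells or endothelium was a frequent feature. The theca markers reached 1 FPKM in up to 5 libraries (STAR), as many as INHBA, and the oocyte, immune, erythroid and endothelial markers in at most 3.

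By their median level the frequent features lay below the universal ones and above the features tested as a whole. Their mean level over the 30 libraries had a median of 3.94 FPKM, from 1.15 FPKM (DCAF10) to 90.05 FPKM (MXLOC_1269438). The 58 features that were above 0 in every library had a median mean level of 564.5 FPKM (16 of them were below the highest frequent feature), and all 6058 features that entered the tests had 0.576 FPKM. Together the 104 features took 1.55% ± 0.605 (SD, n = 30) of a library's summed FPKM, whereas the 58 universal features took 87.3% ± 2.42. The share of the frequent features was lowest in LLG-9 (0.720%) and highest in LLG-7 (3.67%), the library with the fewest features.

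The 3 kinds of identifier differed in level within the set. Features with a gene symbol had a median mean level of 2.04 FPKM, LOC features 5.02 FPKM and MXLOC features 8.93 FPKM, and the 42 gene symbols stopped at 10.8 FPKM (MAP9). Symbols made up 40.4% of the frequent features and 75.8% of all features tested, while MXLOC identifiers made up 24.0% and 11.8%. Among the universal features the MXLOC share was 60.3%. LOC numbers were 46.8% of the frequent features that had an NCBI number, 47.8% of such universal features and 14% of those tested. On the goat assembly ARS1.2, 8 of the 79 with an NCBI number (10.1%) were on scaffolds not placed on a chromosome, against 2.19% of the numbers tested, and the others were spread over 26 chromosomes. Of the unplaced members 7 were LOC features. Among the features tested, 67 of 748 LOC features and 50 of 4593 symbols were unplaced, so that the percentages also reflect the mix of identifiers. The gene spans had a median of 28544 bases for symbols and 4833 bases for LOC features (39817 and 7147 bases among those tested).

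**Figure D1:**
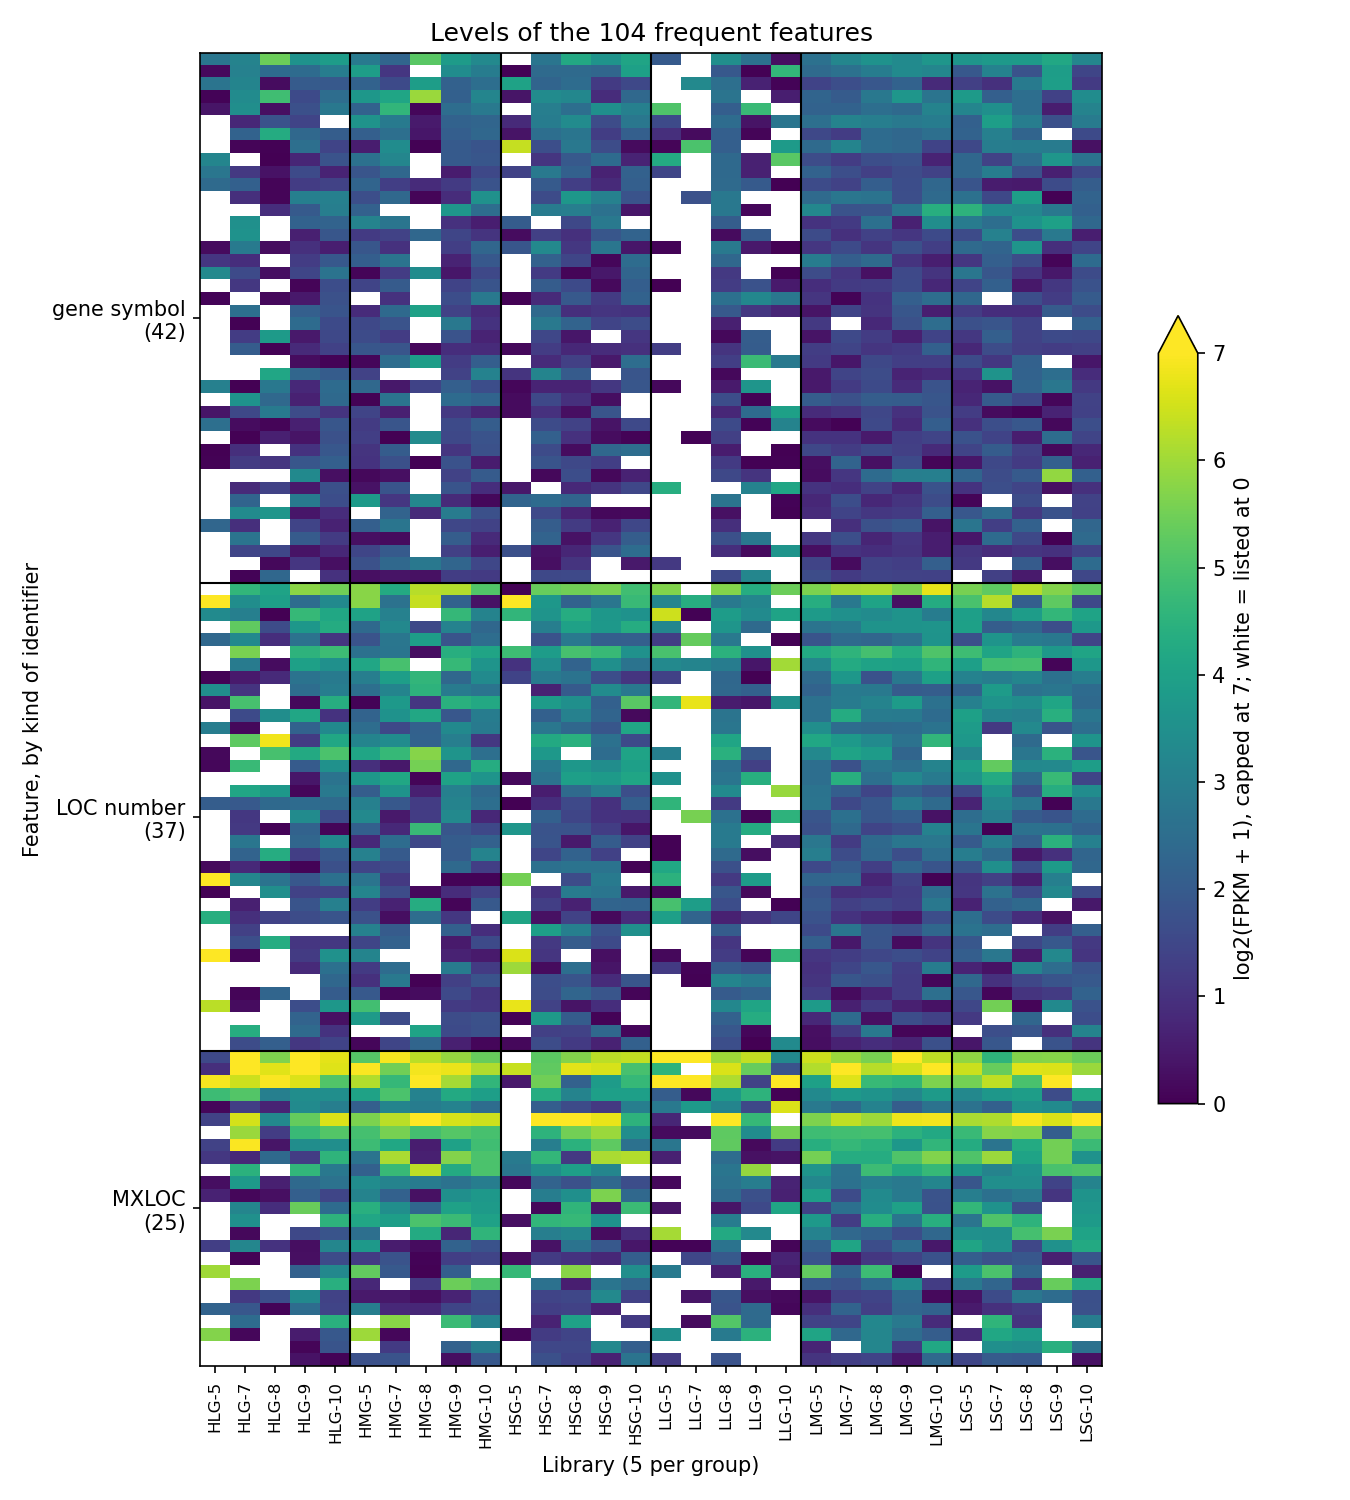
Levels of the 104 frequent features (rows, grouped by kind of identifier and ordered by the number of libraries at 1 FPKM or more) in the 30 libraries (columns, 5 per group), as log2(FPKM + 1) with the colour capped at 7 and white for a value listed at 0. White cells gather in a few columns, LLG-7 and HSG-5 above all, and the LMG columns have almost none.

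Zeros were not spread evenly over the libraries. Of the 3120 values of the frequent features, 521 (16.7%) were listed at 0, and 378 of these (72.6%) lay in the 7 libraries with fewer than 2000 features. Within those 7 libraries 51.9% of the values were 0, and in the other 23 libraries 5.98%. For all features tested, 38.3% of the zeros lay in the 7 libraries, with 88.2% of values at 0 there and 43.2% elsewhere. The 7 were picked for having few features above 0, so that more zeros in them follow from that choice. Leaving the 7 aside, 39 of the 104 features were above 0 in all 23 libraries. EEF1A1 and RPL7 were listed at 0 in 4 and 8 libraries. Both have many near-identical copies in mammalian genomes and the authors kept unique alignments, so that these zeros are uncertain. Whether an FPKM of 0 stood for an absent transcript or a failed estimate was not tested. In libraries of this kind, fewer cells and less RNA per cell cannot be told apart. The part of read numbers in these zeros was not tested either.

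The same 7 libraries also held many of the peaks. In 51 of the 104 features (49.0%) the highest of the 30 values was in one of these libraries, which were 23.3% of all libraries. For the universal features the share was 29.3%, and for all features tested it was 21.5%. A value of 0 cannot be the highest, so that these shares are not on equal terms. In the 7 libraries 88.2% of the values of all features tested were 0, against 51.9% for the frequent and 0.0% for the universal features. HMG-8 alone, with 1521 features above 0, held the highest value of 12 frequent features. The libraries with most features, LMG-8 and LMG-9, had no frequent feature at 0 and none at its highest value.

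**Figure D2:**
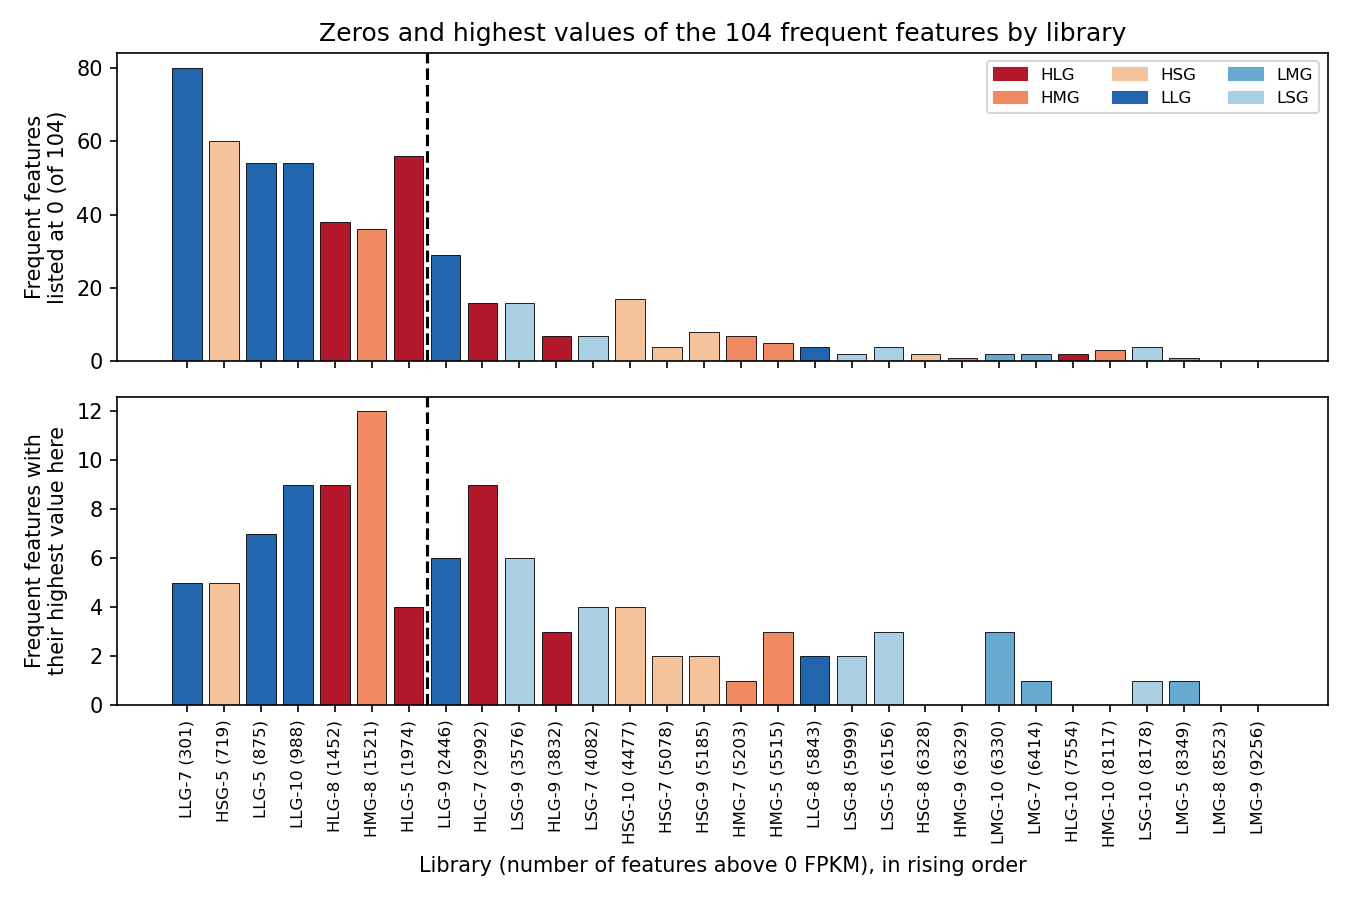
Number of the 104 frequent features listed at 0 (top) and number with their highest value in that library (bottom) for the 30 libraries, in rising order of the number of features above 0 (given in brackets; colours are the 6 groups, and the dashed line marks 2000 features). Zeros range from 80 in LLG-7 to 0 in LMG-8 and LMG-9, and the 12 highest values in HMG-8 are the most of any library.

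LLG-7 showed both sides at once. With 301 features above 0 in all, it held 24 of the frequent features, made up of 10 LOC features, 9 MXLOC features and 5 symbols. The symbols were SLC25A43 (31.63 FPKM), PIGM (8.86), PLIN2 (2.36), ABCB10 (0.16) and RPP14 (0.02). For 5 features the highest of all 30 values came from this library. MXLOC_1269438 stood at 587.27 FPKM there against a median of 58.33 in the other 29 libraries, and MXLOC_259096 at 409.87 against 45.58. The other 3 were LOC features. LOC108636081 was at 107.24 FPKM against a median of 7.73, LOC102177570 at 46.07 against 2.54, and LOC108633770 at 39.44 against 3.97.

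How many frequent features a library showed at 1 FPKM or more followed how many features it showed at all. Across the 30 libraries the Spearman correlation of these numbers was 0.878, as a description, since the first count is part of the second. Taken one by one, the correlation of a feature's level with the number of features above 0 had a median of 0.390 and reached 0.759 for MXLOC_1641905. For 6 features it was negative, namely MXLOC_259096 (-0.54), LOC108635405 (-0.42), LOC108634774 (-0.38), LOC108634577 (-0.24), PIGM (-0.10) and LOC102173648 (-0.07), which are named here after their values were seen.

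**Figure D3:**
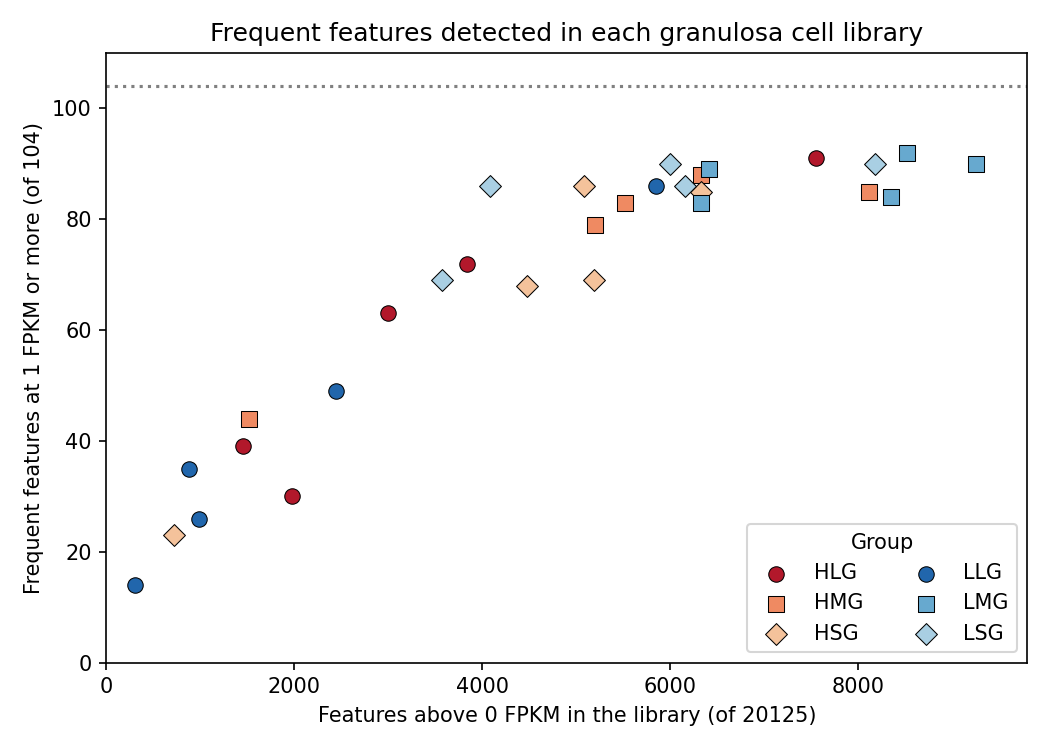
Number of the 104 frequent features at 1 FPKM or more (vertical axis; dotted line at 104) against the number of all 20125 features above 0 FPKM (horizontal axis) for the 30 libraries, with colour and symbol for the 6 groups. The count climbs from 14 in LLG-7 to 86 in LLG-8, a library with 5843 features, and stays between 83 and 92 in the 5 LMG libraries.

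By group, LMG showed the most frequent features and LLG the fewest. The number at 1 FPKM or more per library was 87.6 ± 3.91 in LMG (SD, n = 5, from 83 to 92), 84.2 ± 8.73 in LSG (69 to 90), 75.8 ± 18.1 in HMG (44 to 88), 66.2 ± 25.6 in HSG (23 to 86), 59.0 ± 24.7 in HLG (30 to 91) and 42 ± 27.7 in LLG (14 to 86). Neighbours in this order overlapped in every case. In all 5 libraries of the group, 55 features stood at 1 FPKM or more in LMG, 41 in LSG, 26 in HMG, 8 in HLG, 8 in HSG and 3 in LLG. Of the values in a group, the share at 0 was 0.96% in LMG, 6.35% in LSG, 10% in HMG, 17.5% in HSG, 22.9% in HLG and 42.5% in LLG. A single feature was listed at 0 throughout a group, MXLOC_593995 in LLG.

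Libraries of the same group could lie far apart. In LLG, the 5 libraries (numbers 5, 7, 8, 9 and 10) showed 35, 14, 86, 49 and 26 frequent features at 1 FPKM or more, and in HLG they showed 30, 63, 39, 72 and 91. LLG-8 and HLG-10 were thus within the range of the medium follicle libraries without HMG-8 (79 to 92), and the other 8 large follicle libraries were below it. High minus low fertility came to 17 features at large, -11.8 at medium and -18 at small follicles. Without the 4 libraries with fewer than 1000 features above 0 (HSG-5, LLG-5, LLG-7 and LLG-10, a choice made after seeing the data), the difference turned to -8.5 at large follicles and was -7.2 at small follicles. High and low fertility libraries over all sizes showed 67 ± 22.5 and 71.3 ± 26.6 (SD, n = 15 each).

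Genes of RNA handling and translation formed the largest group among the 42 symbols, with 10 genes in 15 to 21 libraries (the groups of roles were made after the members were known). EEF1A1, the elongation factor that brings charged tRNA to the ribosome, reached 1 FPKM in 21 libraries and had a mean of 4.49 FPKM. Its values (libraries 5, 7, 8, 9 and 10 of each group, here and below) were 8.14, 0, 0.01, 0.69 and 2.46 FPKM in HLG and 18.34, 0, 4.21, 0.57 and 35.84 FPKM in LLG. In LMG they were 2.08, 1.36, 2.23, 2.37 and 0.63 FPKM. The large follicle libraries therefore ranged from 0 to its highest value, while no LMG value was above 2.37 FPKM. RPL7, a protein of the large ribosomal subunit, reached 1 FPKM in 19 libraries, 3 of the 10 large, 8 of the 10 medium and 8 of the 10 small follicle libraries, with a highest value of 21.91 FPKM in LSG-5. EEF1A1 and RPL7 have many near-identical copies in mammalian genomes, and the authors kept unique alignments, so that their levels are uncertain.

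The other genes of this group were lower. DDX21, an RNA helicase of the nucleolus, reached 1 FPKM in 19 libraries (mean 2.06 FPKM) and UTP23, a factor of small ribosomal subunit assembly, in 17 (2.0 FPKM). METTL17, which takes part in building the mitochondrial ribosome, reached 16.51 FPKM in HLG-8 and was listed at 0 in 9 libraries. SYNCRIP (hnRNP Q), RPP14 (a subunit of RNase P), RTCB (the tRNA splicing ligase) and SFPQ (a splicing factor of paraspeckles) each reached 1 FPKM in 16 libraries, with means from 1.19 FPKM (SFPQ) to 1.57 FPKM (SYNCRIP). SRSF10, a splicing regulator, stood at the limit of the rule with 15 libraries. Its highest value, 57.32 FPKM in LSG-9, was far above the next highest, 9.04 FPKM in HLG-9.

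Nuclear genes numbered 7 and reached 1 FPKM in 15 to 18 libraries, all with mean levels of 1.28 to 2.02 FPKM. WDR5B, a relative of the histone methylation subunit WDR5, and the methyl-DNA binding factor ZBTB38 reached 1 FPKM in 18 libraries each. The others were LCOR, a corepressor of nuclear receptors (17 libraries), PSIP1, a chromatin tether (16), CBX1, the heterochromatin protein HP1 beta (15), SKIL, a repressor of SMAD signalling (15), and TMPO, a protein of the nuclear lamina (15). The zeros of TMPO fell mostly in large follicles. Its values were 0, 0, 0.10, 1.16 and 0.23 FPKM in HLG and 1.22, 0, 0, 0 and 0 in LLG, against 2.35, 4.13, 5.94, 3.89 and 1.83 in HMG. In LMG it was at 1.73, 0.15, 1.60, 1.46 and 3.33 FPKM, so that LMG-7 lay within the range of the large follicle libraries.

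MAP9, a microtubule protein of the mitotic spindle, was the most frequent gene symbol, at 1 FPKM or more in 27 libraries and 0 in 2 (HSG-5 and LLG-7). Its values were 5.66, 7.72, 41.97, 10.85 and 13.60 FPKM in HLG and 2.92, 0, 9.91, 5.16 and 0.19 FPKM in LLG. The highest value came from HLG-8 and the second, 35.72 FPKM, from HMG-8, which both belong to the 7 libraries with few features. The centrosome gene CEP70 (21 libraries, mean 2.25 FPKM) and CCDC88A, an actin-binding protein also called girdin (16 libraries, 1.69 FPKM), completed the cytoskeletal genes.

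Genes of the cell surface and of signalling numbered 9. CD58, the ligand of the T cell receptor CD2 and widely carried by other cells, was at 1 FPKM or more in 24 libraries, and CD27, a receptor of the tumour necrosis factor family, in 23. CD27 was at 32.46, 0, 3.23, 25.88 and 0 FPKM in LLG and at 3.59, 3.61, 4.79, 4.26 and 7.77 FPKM in LMG. The LLG values thus took in the highest of all 30 and 2 zeros, with the LMG values between them. Alongside these genes, the immune markers PTPRC and CD14 reached 1 FPKM in 3 libraries each, and CD3E in none. The part of immune cells in the CD58 and CD27 values was not tested.

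Among the remaining signalling genes, RABGAP1L, a regulator of Rab GTPases, reached 1 FPKM in 18 libraries and XIAP, which blocks caspases, in 17. PKIA, an inhibitor of cAMP-dependent protein kinase, and the integrin subunit gene ITGB8 reached it in 16 libraries each. IPMK (an inositol phosphate kinase), STEAP4 (a metalloreductase) and FZD3 (a WNT receptor) each reached it in 15. PKIA stood at 0, 0, 0, 0.18 and 0.05 FPKM in HLG and at 0, 0, 1.48, 26.43 and 6.05 FPKM in LLG. The 3 LLG values above 0 were higher than all HLG values, and the 2 LLG zeros overlapped with them.

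Membrane and metabolic genes numbered 6, in 19 to 24 libraries. PIGM, which adds the first mannose to GPI anchors, was at 1 FPKM or more in 24 libraries and listed at 0 only in LLG-5. Of the mitochondrial transporters, ABCB10 reached 1 FPKM in 22 libraries and SLC25A43 in 21. SLC25A43 was spread most widely, from 0 in HLG-5 and LLG-9 to 31.63 FPKM in LLG-7 and 82.87 FPKM in HSG-5, with a median of 3.55 FPKM in medium follicles. PLIN2, the coat protein of lipid droplets, from which steroid-producing cells draw cholesterol, reached 1 FPKM in 20 libraries, 4 of 10 large, 8 of 10 medium and 8 of 10 small. APIP, an enzyme of methionine salvage, reached it in 19, and the palmitoyltransferase family gene ZDHHC24 in 21.

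HSPB3, a small heat shock protein known from muscle, reached 1 FPKM in 23 libraries. Its values were 0.04, 9.36, 27.69, 1.95 and 4.62 FPKM in HLG, 11.96, 16.32, 60.40, 3.44 and 8.04 FPKM in HMG and 0, 0, 5.45, 0 and 0.49 FPKM in LLG. All 3 of its zeros were in LLG, and its highest value was again in HMG-8. KLHL24 and DCAF10, adaptors of ubiquitin ligases, were each at the limit of 15 libraries. TCP11L1 (23 libraries), LYSMD2 (18), CCDC82 (17) and TDRD15 (17) were assigned no role.

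Few genes of any family reached the set. Of the 14452 gene symbols in the table, 42 (0.291%) were members, and of 26 lists of genes by function or cell type, 7 held 1 member each and 19 held none. The members were RPL7 of 80 cytosolic ribosomal protein genes, EEF1A1 of 67 translation factors, SRSF10 of 112 splicing factors, HSPB3 of 77 chaperones, ZBTB38 of 319 zinc finger factors, SLC25A43 of 323 solute carriers and ITGB8 of 77 adhesion genes. The median ribosomal protein gene reached 1 FPKM in 2 libraries. Lists without a member included oxidative phosphorylation, cell division, the NOTCH pathway and the TGF-β superfamily. The steroid and gonadotropin list came nearest, with HSD17B11, an enzyme that acts on steroids and is found on lipid droplets, at 14 libraries, and BMPR1A, a BMP receptor, was the most frequent TGF-β gene, at 12.

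The limit of the rule fell in a continuous range. Exactly 15 libraries were reached by 15 members, of which the highest by mean level were MXLOC_1055353 (7.49 FPKM), SRSF10 (3.65 FPKM) and MXLOC_593995 (3.39 FPKM). Just outside, 38 features reached 1 FPKM in 14 libraries, all with a zero, and the highest were MXLOC_855725 (7.06 FPKM), MXLOC_119941 (6.02 FPKM) and MXLOC_478856 (4.77 FPKM). On the side of the zeros, 10 members had a single one and no member had more than 13. The nearest universal features were MMGT1, at 1 FPKM or more in 23 libraries with a lowest value of 0.02 FPKM, and NIF3L1 and PEX2 in 27 each.

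The MXLOC features held the most frequent members of all. MXLOC_1269438 reached 1 FPKM in 29 libraries, MXLOC_353467 and MXLOC_259096 in 28, and MXLOC_232152 and MXLOC_928689 in 27, each with a single zero. MXLOC_232152 and MXLOC_928689 were far lower, with means of 12.6 and 8.27 FPKM, than MXLOC_1269438 (90.05), MXLOC_353467 (77.7) and MXLOC_259096 (73.4). MXLOC_259096 went against the number of features: it was at 119.11, 87.30, 124.39, 97.81 and 33.06 FPKM in HLG and at 178.18, 409.87, 70.99, 1.60 and 154.49 FPKM in LLG, and its median was 108.5 FPKM in large, 37.5 in medium and 27.6 in small follicles. MXLOC_928689 was at 6.13, 12.57, 7.99, 1.84 and 98.94 FPKM in LLG, where LLG-7 and LLG-10 held the highest of its 30 values.

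Among LOC features, LOC108634447 was highest on average (43.1 FPKM, 27 libraries), followed by LOC108634774 (37.7 FPKM, 27 libraries). LOC108634774 owed its mean to HSG-5 (461.31 FPKM) and HLG-5 (190.09 FPKM), and its medians were 8.70 FPKM in large, 10.8 in medium and 19.0 in small follicles. LOC108634447 was at 47.87, 65.64, 68.21, 47.96 and 105.70 FPKM in LMG and at 50.30, 0, 50.75, 19.23 and 42.10 FPKM in LLG. Outside HLG-5, HSG-5 and LLG-7, where it was at 0 or 0.03 FPKM, no value of the 30 was below 15.75 FPKM.

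Large against medium follicles was the comparison in which most frequent features differed at an unadjusted threshold. With limma on log2(FPKM + 1), no frequent feature passed an adjusted p of 0.05, and none of the 6058 features tested did (0.0%). At an unadjusted p under 0.05 there were 24 of 104 (23.1%), 23 lower and 1 higher in large follicles, against 11.5% of all features tested (11.2% lower and 0.363% higher). The median log2 difference was -0.63 over the 104 features and -0.25 over all features tested, and 89 of the 104 were negative. Low features move less on the log2(FPKM + 1) scale, and the features tested had a lower median level. The rule for the set also used these same values and asked for a zero. Of the zeros of the set, 42.4% lay in LLG and 22.8% in HLG. Shares over the set and over all features tested are therefore not on equal terms, here and in the comparisons below. By identifier, 5 of 42 symbols, 7 of 37 LOC features and 11 of 25 MXLOC features were among the 23 that were lower in large follicles. The shares of each kind over all features tested were not computed. The kinds also differed in median mean level (2.04, 5.02 and 8.93 FPKM), so that these counts do not rank them.

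The number of features above 0 differed along with follicle size, with 2826 ± 2329 features in large and 6556 ± 2241 in medium follicle libraries (SD, n = 10 each). With this number as a covariate, 5 frequent features had an unadjusted p under 0.05, against 4.85% of all features tested, and the median log2 difference was 0.04. Without the 4 libraries under 1000 features the count was 14 (5.24% of all features tested), and without the 4 libraries that the study does not list among its mapped ones it was 15 (6.04%). With sample quality weights 40 frequent features were at this threshold, against 23.4% of all features tested, and with a pseudocount of 0.1 there were 36, against 18.5%. Leaving out each library in turn gave 17 to 29.

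MXLOC_653941 had the lowest p in this comparison and in that of large with small follicles. In large follicles it stood at 1.19, 0.73, 4.22, 1.37 and 22.31 FPKM in HLG and 0.57, 0, 4.57, 0.25 and 0.28 FPKM in LLG. In medium follicles it was at 5.47, 68.68, 0.54, 50.89 and 31.59 FPKM in HMG and 45.21, 19.30, 18.99, 32.45 and 50.41 FPKM in LMG. In small follicles the lowest, the median and the highest value were 1.25, 28.3 and 72.29 FPKM. HLG-10 was the highest of the large and HMG-8 the lowest of the medium follicle libraries. The log2 difference of large from medium was -3.12 ± 0.67 (SE, limma adjusted p = 0.0951), and over the alternatives the adjusted p ran from 0.00528 (without HMG-8) to 0.942 (count of features above 0 as covariate). Leaving out HLG-10 (0.0399) or LLG-8 (0.0348) also brought the limma adjusted p under the threshold.

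The next features by p were LOC108636107, MXLOC_119943, MXLOC_1572623 and TMPO. LOC108636107 was at 0.02, 0.41, 0.77, 5.40 and 6.28 FPKM in HLG and 1.56, 0, 4.05, 0.01 and 0 in LLG, and its lowest, median and highest medium follicle values were 2.40, 8.14 and 23.39 FPKM. The log2 difference was -2.13 ± 0.53 (limma adjusted p = 0.241). MXLOC_119943 was above 0 in 3 of 10 large and all 10 medium follicle libraries (log2 difference -2.74 ± 0.72, limma adjusted p = 0.241). For MXLOC_1572623 the log2 difference was -2.98 ± 0.79 (limma adjusted p = 0.241, and 0.0348 without LLG-8). Its median was 16.6 FPKM in large and 83.2 FPKM in medium follicles. For TMPO the log2 difference was -1.44 ± 0.38 (limma adjusted p = 0.241), with medians of 0 and 2.09 FPKM. Among the symbols TCP11L1 came next, with -1.48 ± 0.53 (limma adjusted p = 0.348), from a median of 1.22 FPKM in large to 6.24 FPKM in medium follicles. The symbols with the lowest p in the other direction, IPMK (0.53 ± 0.50) and CCDC88A (0.45 ± 0.46), differed by about their standard error.

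**Figure D4:**
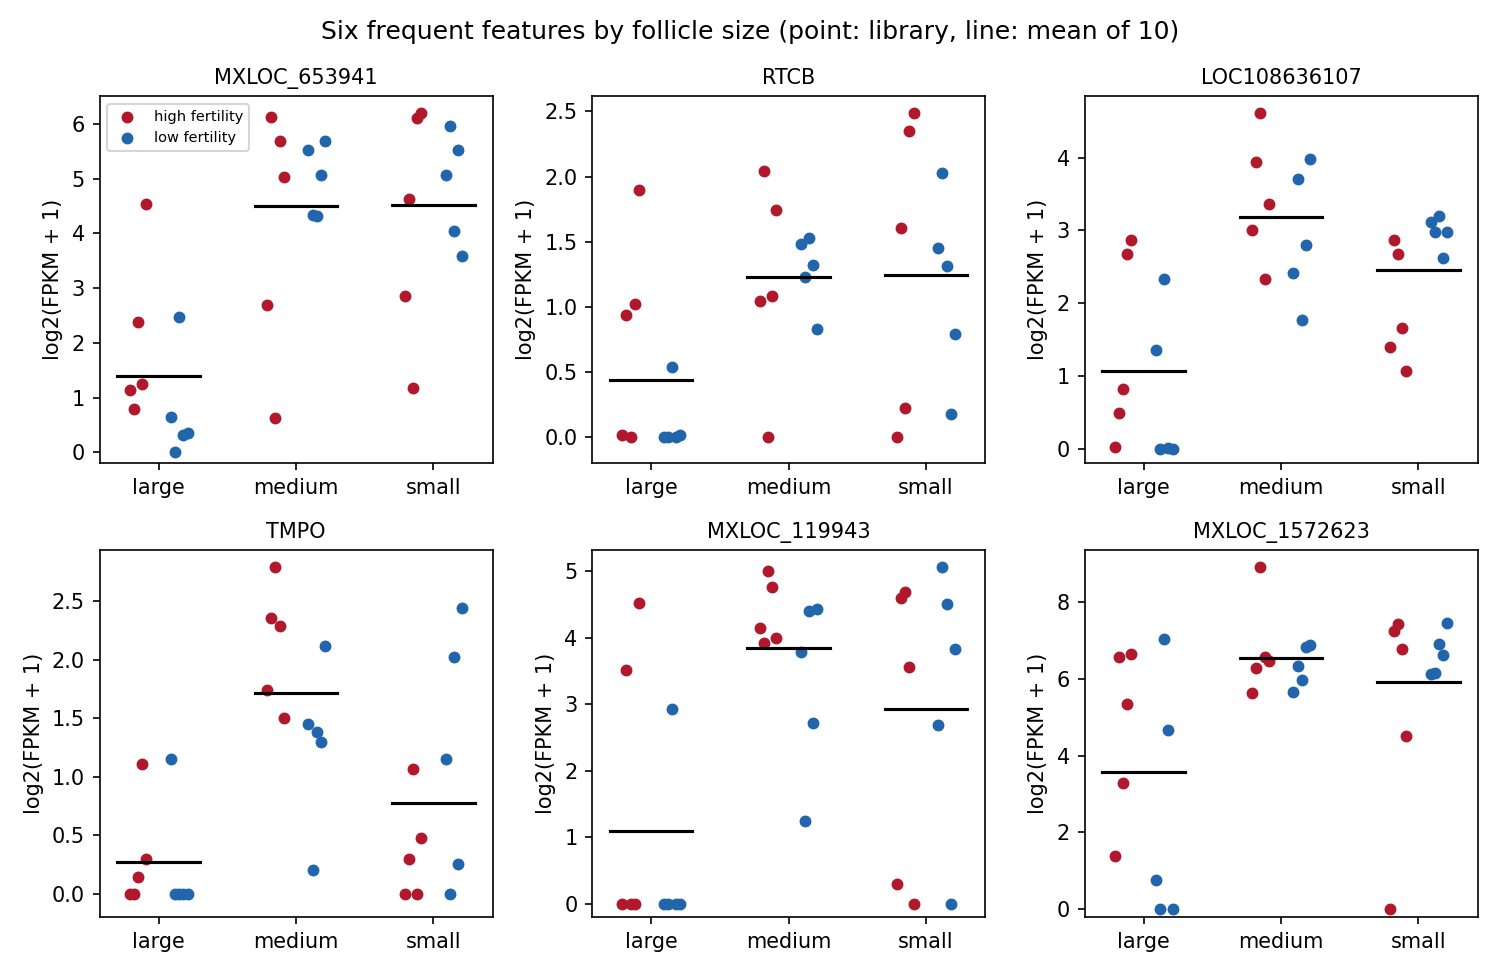
Levels of 6 frequent features by follicle size as log2(FPKM + 1), with a point for each library (red high, blue low fertility) and a line at the mean of 10 libraries. These are the 5 members with the lowest p for large against medium and RTCB, whose levels are most like those of MXLOC_653941; for each of the 6 the large follicle mean is the lowest of the 3, and the points of the 3 sizes overlap.

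The comparison of large with small follicles shares the large follicle libraries with the preceding one. No frequent feature and none of the features tested (0.0%) passed the adjusted threshold, and 21 of 104 (20.2%) had an unadjusted p under 0.05, 20 lower and 1 higher in large follicles, against 8.42% of all features tested (7.97% lower and 0.446% higher). The median log2 difference was -0.56, against -0.19 over all features tested. For MXLOC_653941 it was -3.12 ± 0.67 (limma adjusted p = 0.161), for MXLOC_593995 -2.03 ± 0.56 and for LOC108637988 -1.75 ± 0.51 (limma adjusted p = 0.557 for the last pair). Leaving out HLG-10 (0.0391), HSG-8 (0.0201) or LLG-8 (0.0472) brought the limma adjusted p of MXLOC_653941 under the threshold. MXLOC_593995 was above 0 in 2 of 10 large and 8 of 10 small follicle libraries. Of the symbols, RPL7 (-1.63 ± 0.59) and TCP11L1 (-1.41 ± 0.53) had the lowest p. MXLOC_259096 was the feature with a higher level in large follicles (2.23 ± 0.74). Among symbols the other direction was led by CCDC88A (0.78 ± 0.46) and IPMK (0.67 ± 0.50). With the per-library count of features above 0 as covariate, 7 frequent features were at an unadjusted p under 0.05, against 4.62% of all features tested, and with sample quality weights 32, against 13.5%. Leaving out each library gave 15 to 29.

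Between medium and small follicles few frequent features differed at an unadjusted threshold. None passed the adjusted threshold, which 1 of the 6058 features tested did (0.0165%), and 1 of 104 had an unadjusted p under 0.05, against 5.13% of all features tested (3.99% higher in medium follicles). Leaving out each library in turn gave 1 to 3 (3 without HMG-8 or HSG-7). With all libraries this was TMPO, higher in medium follicles by 0.94 ± 0.38 on the log2 scale (limma adjusted p = 0.934). Among symbols, PSIP1 came next in that direction (0.85 ± 0.48), and METTL17 (-0.73 ± 0.52) and RABGAP1L (-0.70 ± 0.50) were the first in the other. The median log2 difference was 0.01, against 0.05 over all features tested. Standard errors were wide (0.74 for MXLOC_259096), so that these counts do not show medium and small follicles to be alike.

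**Figure D5:**
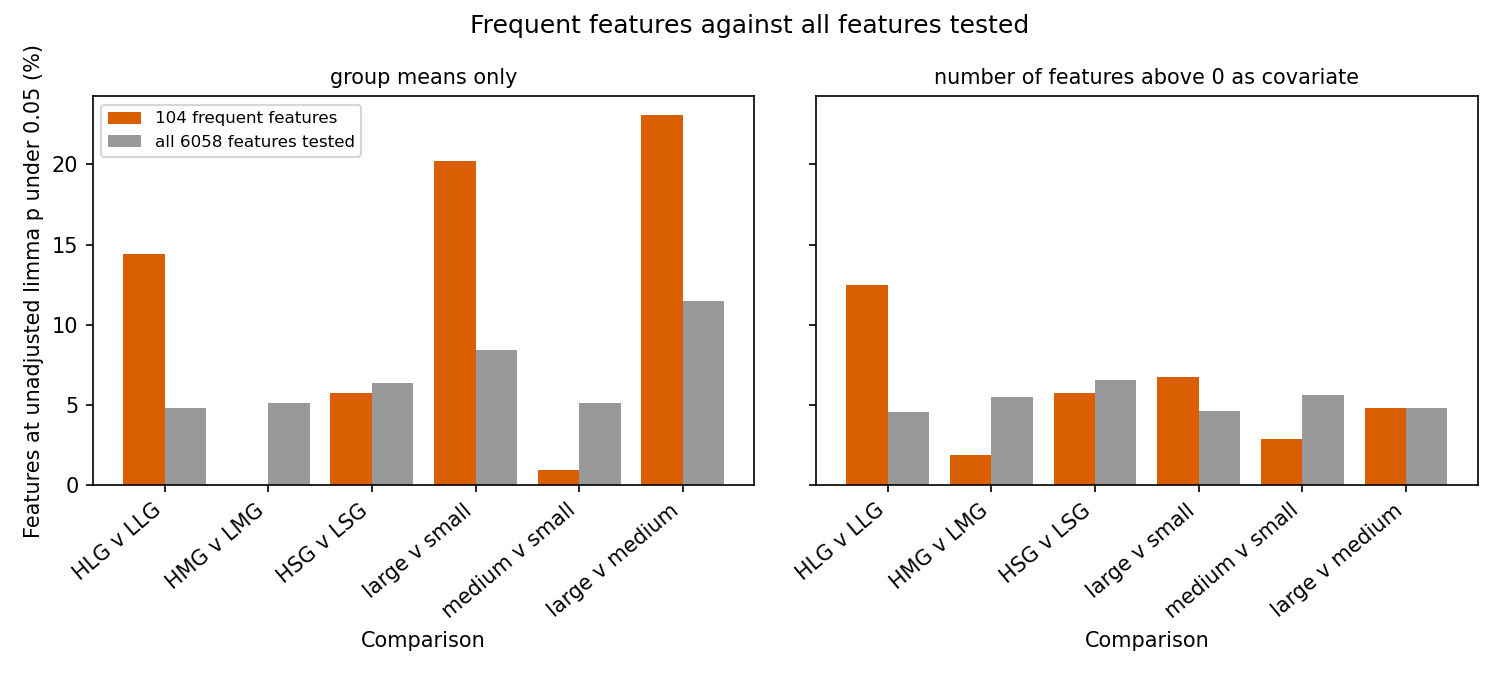
Share of the 104 frequent features (orange) and of all 6058 features tested (grey) with an unadjusted limma p under 0.05 in 6 comparisons, with group means only (left) and with the per-library count of features above 0 as covariate (right). In the left panel the orange bars are above the grey ones for HLG against LLG (14.4%), large against small (20.2%) and large against medium (23.1%), and in the right panel HLG against LLG is the comparison with the widest gap. The rule for the set used these same values and asked for a zero, so that the orange and grey bars are not on equal terms.

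Fertility was compared within each follicle size. For HLG against LLG no frequent feature and none of the features tested (0.0%) passed the adjusted threshold, and 15 of 104 (14.4%) had an unadjusted p under 0.05, 11 higher and 4 lower in HLG, against 4.8% of all features tested (3.81% higher and 0.99% lower). The median log2 difference was 0.57, against 0.10 over all features. MAP9, whose values are given above, had the lowest p (2.09 ± 0.81, limma adjusted p = 0.976). LOC108637287 followed, at 0, 37.27, 113.36, 1.32 and 16.96 FPKM in HLG and 0, 0, 16.32, 0 and 0 FPKM in LLG (2.67 ± 1.05), and then WDR5B (1.61 ± 0.66). WDR5B was above 0 in all 5 HLG libraries, with 8.75, 1.99, 0.19, 1.76 and 5.35 FPKM, and at 0, 0, 1.25, 0 and 0.02 FPKM in LLG. Of the features lower in HLG, MXLOC_928689 (-1.89 ± 0.80) had the lowest p, and among symbols PKIA (-1.72 ± 0.74) and IPMK (-1.43 ± 0.71) came first. IPMK was at 0, 0.79, 1.62, 0.39 and 2.29 FPKM in HLG and at 19.44, 0, 0, 7.53 and 16.27 FPKM in LLG, so that LLG held the 3 highest values and 2 zeros.

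This comparison depended on the libraries included. Without the 4 libraries under 1000 features, of which 3 belong to LLG and none to HLG, the 15 features became 9, 1 higher and 8 lower in HLG, and the median log2 difference was -0.08. LLG then had 2 libraries. Without the 4 libraries that the study does not list among its mapped ones, the count was 14, 11 higher and 3 lower, against 5.62% of all features tested, and the median log2 difference was 0.38. With sample quality weights 32 features were at this threshold, 28 higher and 4 lower, against 10.3% of all features tested. Leaving out each library in turn gave 6 to 20, with 6 without HLG-7 or without HLG-8 and 7 without LLG-10, and without LLG-7 there were 5 higher and 7 lower. With the per-library count of features above 0 as covariate, 13 features were at this threshold, 7 higher and 6 lower, against 4.56% of all features tested. The groups overlapped in every one of the 104 features (0.132% of the features tested did not overlap).

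At medium follicles, HMG against LMG, no frequent feature passed either threshold, and the share at an unadjusted p under 0.05 over all features tested was 5.15% (0.0% at the adjusted threshold). Leaving out HMG-5, HMG-9, HMG-10 or LMG-5 brought 1 feature to that unadjusted threshold. A pseudocount of 0.1 brought 1, lower in HMG, against 6.19% of all features tested. With the per-library count of features above 0 as covariate there were 2, both higher in HMG, against 5.5%. The median log2 difference over the 104 features was -0.05 with group means only and 0.32 with this covariate (0.09 over all features tested). The symbols with the lowest p were TMPO (0.85 ± 0.54) and HSPB3 (1.13 ± 0.85) on the higher side and SRSF10 (-1.20 ± 0.75) and RPL7 (-1.12 ± 0.83) on the lower. LOC108637882 had the lowest p of all (-1.81 ± 0.99, limma adjusted p = 0.985), with 5.10, 5.64, 0.20, 20.03 and 16.02 FPKM in HMG and 18.01, 22.52, 29.67, 19.21 and 32.84 FPKM in LMG. HMG-9 alone brought the groups to overlap, and no frequent feature was free of overlap (1.11% of the features tested were).

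At small follicles, HSG against LSG, again none passed the adjusted threshold (0.0% of all features tested), and 6 of 104 had an unadjusted p under 0.05, all lower in HSG, against 6.39% of all features tested (4.57% lower). Leaving out each library in turn gave 3 to 7 (3 without LSG-9). SRSF10 was at 0, 0.12, 2.15, 0.12 and 0.58 FPKM in HSG and 3.81, 2.08, 2.93, 57.32 and 3.44 FPKM in LSG. The log2 difference was -2.25 ± 0.75 (limma adjusted p = 0.509), and HSG-8 and LSG-7 overlapped. MXLOC_959500 was at 0, 7, 8.12, 0.18 and 0.84 FPKM in HSG and 10.47, 10.28, 29.81, 47.53 and 15.83 FPKM in LSG (-2.87 ± 0.97). It was the frequent feature whose groups did not overlap, as did 0.248% of the features tested. MXLOC_747803 differed by -2.31 ± 0.82 and APIP by -1.79 ± 0.78. For APIP the values were 3.08, 0, 1.89, 6.14 and 0 FPKM in HSG and 6.59, 4.79, 10.85, 14.66 and 4.07 FPKM in LSG. STEAP4 (0.77 ± 0.74) and FZD3 (0.34 ± 0.61), the symbols with the lowest p in the other direction, differed by little more than their standard error or less.

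Averaged over the 3 sizes, high against low fertility gave 3 frequent features at an unadjusted p under 0.05, all lower in high fertility, against 3.95% of all features tested (2.46% lower), and none at the adjusted threshold (0.0%). The count was 6 without LLG-7, 5 without HLG-5 or LLG-8, and 2 to 6 over all libraries left out in turn. The 3 features were MXLOC_959500 (-1.59 ± 0.56), SRSF10 (-1.08 ± 0.44) and MXLOC_928689 (-0.98 ± 0.46), with a limma adjusted p of 0.952 for each. IPMK (-0.65 ± 0.41), STEAP4 (0.74 ± 0.43) and HSPB3 (0.78 ± 0.49) came next among the symbols. In the test of whether the fertility difference varied with size, 8 of 104 had an unadjusted p under 0.05, against 4.67% of all features tested (0.0% adjusted). With sample quality weights there were 16, against 7.64%, and leaving out each library gave 3 to 14 (14 without HLG-5, 3 without HLG-10 or LLG-10, and 5 or fewer for 15 of the 30 libraries left out). KLHL24, APIP and MXLOC_747803 were among them (limma adjusted p = 0.895). KLHL24 was at 0, 9.20, 11.87, 0.33 and 0.86 FPKM in HLG and 0, 0, 0.25, 0 and 0.03 FPKM in LLG, and at 0, 1.93, 0.62, 0.11 and 0.13 FPKM in HSG and 2.71, 4.64, 1.22, 2.39 and 1.54 FPKM in LSG. It was thus higher in HLG than in LLG on average and lower in HSG than in LSG, although the adjusted test did not separate these differences.

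Pairs of frequent features were mostly weakly alike. Over the 5356 pairs the Spearman correlation of levels across the 30 libraries had a median of 0.193, and 5% and 95% of pairs lay below -0.225 and 0.518. All pairs share the libraries and their number of features above 0. The most alike were MXLOC_653941 and RTCB (0.80), KLHL24 and PSIP1 (0.767) and LCOR and MXLOC_639276 (0.731). RTCB stood at 0.01, 0.92, 0, 1.03 and 2.72 FPKM in HLG and 0, 0, 0.45, 0 and 0.01 FPKM in LLG, and reached 4.62 FPKM in HSG-10, where MXLOC_653941 also had its highest value. The least alike were PIGM and IPMK (-0.762).

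Frequent features next to each other in the order of the RefSeq genes formed 2 pairs. LOC108636107 and TMPO on chromosome 5 had a correlation of 0.671, were together at 1 FPKM or more in 15 libraries and together at 0 in 2, and had their highest values in HMG-8. STEAP4 and LOC108635898 on chromosome 4 had a correlation of -0.009. Whether reads of LOC108636107 and TMPO were kept apart by strand is not given in the sources used here.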

How the data were processed

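Total RNA depleted of ribosomal RNA was sequenced from 30 granulosa cell libraries, grouped by the labels. The deposited FPKM values were computed by the authors with Cufflinks 2.2.1 and an Ensembl annotation from uniquely aligned reads, after picard had taken out duplicates; the aligner and build are not given in the sources used here. The table held 17946 NCBI numbers, of which 17945 matched the RefSeq table of ARS1.2, and 2179 MXLOC identifiers. FPKM gives no read depth.

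The members, gene lists and comparisons were chosen with earlier results of these data known. Features above 0.5 FPKM in at least 5 libraries were tested (6058). All 104 members passed, because their rule is stricter, so passing supports nothing. limma 3.58.1 (R 4.3.3) was fitted to log2(FPKM + 1) with all 6 groups in 1 model and a robust, trended prior, two-sided, with Benjamini-Hochberg adjustment over all features tested in each comparison. Fold changes on this scale understate the change of low features. The script was tested on simulated data, drawn as normal log2 values from each feature's mean and SD. They lacked the many zeros and the uneven libraries of the real data, so that this test says nothing about their effect. Counts and figures were made with Python 3.11.15, pandas 2.3.3 and matplotlib 3.10.9.

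Named by rule were the 10 symbols and 5 MXLOC features in most libraries, the 2 symbols per direction with the lowest p in each comparison (2 for the interaction), up to 3 members of each list, and the features nearest the limits. The members with the lowest p of any kind, roles, LOC features and those singled out in the text were added after their values were seen. The alternatives were a pseudocount of 0.1, no filter, leaving out each library, leaving out 4 libraries that the study does not list among its mapped ones (HLG-5, HSG-5, LLG-5 and LLG-7), the replicate number as a block, sample quality weights and the per-library count of features above 0 as covariate, and, added after seeing the data, leaving out the 4 libraries with fewer than 1000 features above 0. No sequence was used.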

Additional observations from a re-analysis of the deposited data

Results flagged for a closer look

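In groups of 5 libraries, a library was singled out when its gap to the nearest other was large beside the range of the group (Dixon's criterion). Of 108 sets of 5 values searched, 12 met it, where the nominal rate is about 1 in 20 (5.4 sets). That rate holds for independent, normally distributed values. These sets share the same 30 libraries and hold many zeros, so that an excess over chance was not tested.

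Of 18 sets of library totals, 4 were singled out. The number of frequent features at 1 FPKM or more was 44 in HMG-8 (the other HMG libraries had 79 to 88), 23 in HSG-5 (68 to 86) and 69 in LSG-9 (86 to 90). The frequent features took 3.24% of the summed FPKM in HSG-5, against 0.907% to 1.47% in the other HSG libraries.

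Of 90 sets of levels of the 10 symbols and 5 MXLOC features in most libraries, 8 were singled out. Low values were CD58 in HLG-5 (0.13 FPKM, others 4.45 to 7.39), CD27 in HSG-5 (0.0 FPKM, others 4.72 to 10.1), ABCB10 in HMG-8 (0.34 FPKM, others 3.28 to 4.91), MXLOC_1269438 in HSG-5 (0.0 FPKM, others 36.99 to 80.6), MXLOC_353467 in HLG-5 (0.94 FPKM, others 99.7 to 137.0), MXLOC_259096 in HLG-10 (33.1 FPKM, others 87.3 to 124.4) and MXLOC_232152 in HSG-5 (0.0 FPKM, others 7.72 to 19.1). The high value was HSPB3 in LLG-8 (5.45 FPKM, others 0 to 0.49). HMG-8, HSG-5 and HLG-5 are among the 7 libraries with fewer than 2000 features above 0, and LLG-8 and HLG-10 have the most features of their groups.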

How the results depend on the processing

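The count of frequent features past the adjusted threshold stayed at 0 in every comparison but large against small and large against medium. For large against small it was 1 with a pseudocount of 0.1 (MXLOC_653941) and ran from 0 to 1 when each library was left out (1 without HLG-10, HSG-8 or LLG-8). For large against medium it was 2 with a pseudocount of 0.1, 4 with sample quality weights (LOC108636107, MXLOC_119943, MXLOC_1572623 and MXLOC_653941) and 0 to 2 when each library was left out (1 without HLG-10 or HMG-8, 2 without LLG-8). The number of members was 310 with 0.5 FPKM and 55 with 2 FPKM in the rule, and 247 with at least 12 and 65 with at least 18 libraries. The cause was not tested. High minus low in features at 1 FPKM or more ran from 9 to 28 at large, -14.8 to -3.85 at medium and -22.9 to -7.2 at small follicles when each library was left out.

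Libraries with the same replicate number did not deviate together (correlations from -0.0335 to 0.124 over 75 pairs, 7 of 30 libraries closest to their own number). With the replicate number as a block, 0 frequent features passed the adjusted threshold in each comparison, and unadjusted counts were 16 for HLG against LLG, 22 for large against small and 23 for large against medium. None of the 42 log2 differences of named features in a comparison changed direction under the alternatives run. They had been picked for their low p in the same libraries, so that this supports nothing. Their sizes varied, as for RPL7 in HMG against LMG (-1.12, and -0.22 with the covariate). The median over the 104 features did change sign, to -0.08 for HLG against LLG without the 4 libraries under 1000 features. With the covariate it was 0.04 for large against medium, and 0.32 for HMG against LMG (-0.05 without it). Read numbers were not used here, and the number of features above 0 (301 to 9256) limits what each library can show.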
